A study of Mus musculus with 4 samples.

Results

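The 119 probe sets described here measure cytokines, chemokines and their receptors in area CA1 of the hippocampus of unchallenged mice. They were taken by gene name. A non-control probe set with exactly 1 annotated symbol entered if that symbol began with Il and a digit, Ccl, Ccr, Cxcl, Cxcr, Cx3c, Tnfsf or Tnfrsf, or was Tnf, Lif, Csf1, Csf2 or Csf3. The 119 stood for 103 of 8251 genes named by 1 symbol, and the array had 12422 non-control probe sets, 10833 of them with 1 symbol. Under the symbol Lif no such probe set was found, so that cytokine is not analysed here. Another 7 probe sets carried several symbols of which at least 1 fitted the rule (among them those for Ccl19, Ccl21a, Ccl27a and Tnfsf12), and these were left out.

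All 4 samples were total RNA from area CA1 of young male mice of the inbred strain C57BL/6J that had been handled and had no other treatment. They were controls for shocked mice, which are not analysed here, and tissue was taken once at 1, 2, 4 and 6 hours, counted from the last shock given to those mice. Whether several animals were pooled for a sample is not stated. Time, animal, dissection and array therefore differ together between samples. Values are deposited signals, intensities on a linear scale, unless given as log2, and 4 values in a row are those of the 1-, 2-, 4- and 6-hour samples. In bulk tissue, fewer cells of a type and less RNA per cell cannot be told apart.

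Cytokines are small secreted or membrane-bound proteins through which cells of the immune system, and of the brain, signal over short distances. Interleukins, colony-stimulating factors and members of the tumour necrosis factor (TNF) superfamily act on single-pass receptors, while chemokines act on receptors coupled to G proteins and guide migrating cells. In brain tissue without infection or injury most inflammatory cytokines are known to be made at very low levels, and a few members have resident roles. Neurons make fractalkine, the ligand of a receptor on microglia, and microglia depend on signalling through the receptor for colony-stimulating factor 1.

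No detection calls were used, so background was read from 119 probe sets of 98 genes that belong to other organs (for example liver, pancreas, muscle, skin, lens, testis and pituitary). These signals may hold unspecific binding and some true transcript, and how much of each was not tested. The 90th percentile of this background list was 327.1, 294.1, 346.6 and 305.4 after quantile normalization, and its 75th percentile was 117.0, 108.8, 131.5 and 111.0. A member's normalized signal was set against each threshold, and the count was of those above it in all 4 samples. Signals printed below are as deposited, so a value close to a threshold can lie on its other side after normalization. A further threshold, added after seeing the data, came from 19 control probe sets for bacterial and yeast transcripts that mice do not make. The highest of them had 78.2, 89.2, 85.2 and 110.3 on the deposited scale.

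Most of the cytokine system lay in the range of the background. Of 119 probe sets, 6 (5.04%) were above the 90th percentile in all 4 samples, 7 in some samples and 106 (89.1%) in none. Over all 12422 non-control probe sets 32.4% were above it in all 4 samples, and in the background list itself 7 of 119 (5.88%) were. Above it in none were 56.7% of all probe sets and 85.7% of the background list. At the 75th percentile 18 of 119 (15.1%) were above in all 4 samples, against 50.7% of all probe sets and 17.6% of the background list. Another 28 were above it in some samples and 73 (61.3%) in none, against 31.8% of all probe sets and 64.7% of the background list in none. The 2 thresholds are quantiles of the background list, and the members' shares lay close to that list's own. The median member had a normalized signal of 44.9 (its median over the 4 samples), the median probe set of the background list 42.8 and the median of all probe sets 179.8. By the bacterial and yeast controls, on the deposited scale, 57 members lay at or below the highest control in every sample, and 21 lay above it in every sample.

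**Figure D1:**
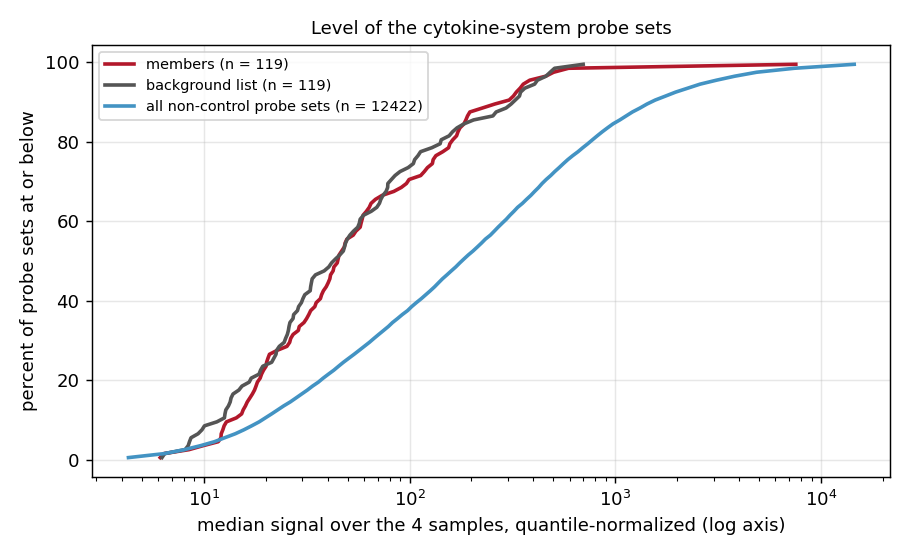
Cumulative distribution of the median normalized signal over the 4 samples (log axis) for the 119 members, the 119 probe sets of the background list and all 12422 non-control probe sets. The curves of the members (median 44.9) and of the background list (42.8) run close together, and that of all probe sets (179.8) lies to the right.

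**Figure D2:**
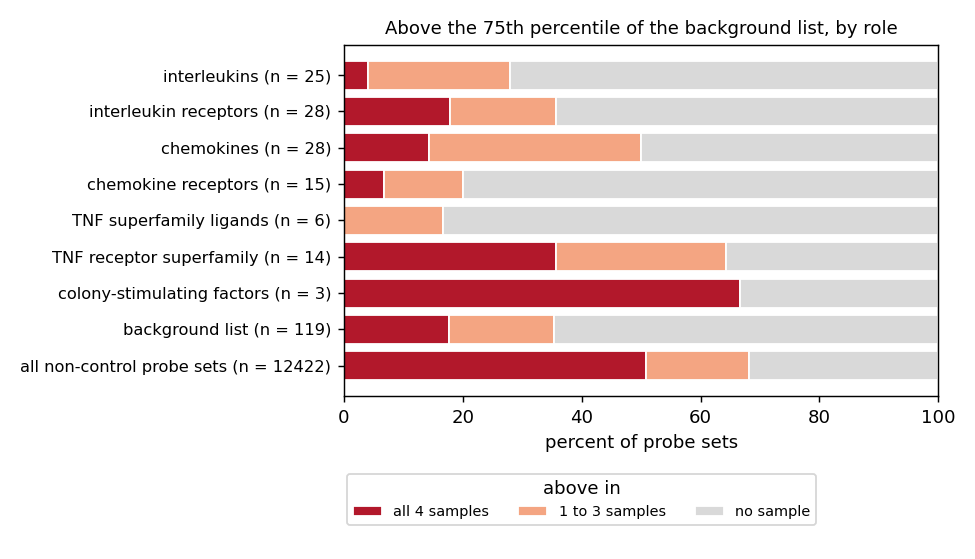
Percent of the probe sets of each role that exceeded the 75th percentile of the background list in all 4, in 1 to 3 or in 0 samples, with the number of probe sets in brackets. The TNF receptor superfamily (5 of 14 in all 4) and the colony-stimulating factors (2 of 3) have the longest dark bars among the roles, and the TNF superfamily ligands (0 of 6) have none.

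A short set of facts on the samples bears on these values. In the marker lists a gene with several probe sets was represented by the one of highest mean, which can raise a count. Over all non-control probe sets, counted singly, 32.4% were above the 90th percentile in all 4 samples and 56.7% in none. The 3' over 5' signal of the Gapdh control transcript, a measure of RNA integrity, was 4.52, 1.18, 1.37 and 1.20, highest at 1 hour. That of beta-actin was 2.34, 2.00, 1.80 and 1.76, also highest at 1 hour but by much less. The main counts are therefore also given without the 1-hour sample. Of 9 measured neuron and CA1 markers 7 were above the 90th percentile in all 4 samples, Wfs1 of CA1 neurons among them (2292, 2274, 2797 and 1964), whereas the probe set for Camk2a was low (29.7, 94.9, 55.2 and 34.9). Of 15 measured microglial markers, Cx3cr1 counted in, 8 were above in all 4 samples and 6 in none, and the 15 had a summed signal of 9948.5 to 11343.1. The 6 were Aif1, Cd68, Fcer1g, Fcgr3, Itgam and Ptprc. Of these, Aif1 had 170.8, 69.8, 45.6 and 117.3, and Ptprc, the pan-leukocyte marker CD45, had 45.6, 30.7, 8.9 and 6.8. Of 26 markers of T, B and NK cells and granulocytes 0 were above in all 4 samples and 25 in none, with a summed signal of 2210.1 to 2450.0. At the 75th percentile 4 of the 26 were above in all 4 samples, namely Camp, Cd4, Elane and Ms4a1, and Cd4 of helper T cells had 212.4, 291.0, 293.4 and 235.4. The T cell receptor complex genes Cd3d, Cd3e and Cd3g were above it in 0 samples. Of 6 choroid plexus markers 0 were above the 90th percentile in all 4, but their summed signal reached 3020.1 at 1 hour, against 580.2 to 739.1 at the later times. Most of the 1-hour sum was Ttr, which had 2246, 198.8, 352.7 and 142.8. Their part in the results below was not tested.

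Among the chemokines, the member furthest above the thresholds was fractalkine, Cx3cl1, a membrane-bound chemokine of neurons that can also be shed. Its main probe set had 16904, 16714, 18747 and 16562, and after normalization the lowest, 16109 at 1 hour, was 49.2 times the 90th percentile of the background list. The 4 samples were close to each other, with an SD of 0.10 on the log2 scale (n = 4). Its receptor Cx3cr1, which in brain marks microglia, had 323.9, 368.2, 365.0 and 478.4. After normalization the 1-hour value was 328.7, only 1.005 times the 90th percentile, so Cx3cr1 was the member just inside it (log2 SD 0.22). A second Cx3cl1 probe set, marked in its identifier as resting on probes chosen under relaxed rules, had 475.8, 285.9, 356.8 and 93.5. It exceeded the 90th percentile in 2 samples and did not follow the brighter set.

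Cxcl14, a chemokine made constitutively by epithelia and by some neurons, had 480.3, 423.3, 499.1 and 516.8 (log2 SD 0.13), above the 90th percentile in every sample. Ccl22, a ligand of Ccr4 that dendritic cells and macrophages make, had 322.6, 274.6, 353.5 and 451.7 and, after normalization (327.6 at 1 hour), was under the 90th percentile in the 2-hour sample alone. In the gene order of the assembly GRCm38.p6 the genes Ccl22, Cx3cl1 and Ccl17 follow each other directly. Ccl17, another Ccr4 ligand, had 24.7, 16.2, 149.5 and 32.6, so of these neighbours it alone was in the range of background in 3 samples. Cxcl12, which holds progenitor cells and guides neurons through Cxcr4, was represented by 3 probe sets. One had 371.5, 362.9, 201.6 and 276.8 and was above the 75th percentile in all 4 samples. The others had 102.0, 167.1, 52.1 and 90.4, and 223.3, 140.5, 137.4 and 41.3. The probe sets of this gene disagreed in which sample was lowest and in how many samples passed the 75th percentile.

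Several inducible chemokines had low signals. Ccl2, which recruits monocytes, had 12.8, 13.4, 6.8 and 27.4, and Ccl5, which recruits T cells, had 19.0, 23.7, 21.2 and 8.0. Cxcl10, induced by interferon, had 5.3, 35.8, 86.7 and 45.1, and Cxcl9, also induced by interferon, had 35.9, 20.4, 13.3 and 5.0. Of 28 chemokine probe sets 14, for 13 genes, were above the 75th percentile in 0 samples, with signals from 5.0 to 95.6. The macrophage inflammatory protein Ccl3 had 117.8, 88.8, 137.0 and 171.9 and exceeded the 75th percentile in 3 samples. Its neighbour in gene order Ccl4 had 37.7, 183.6, 36.3 and 78.0, with the 2-hour sample high. Ccl25, a chemokine of thymus and gut, had 39.5, 58.3, 45.9 and 31.6.

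Of 15 chemokine receptor probe sets, 1 for each gene, Cx3cr1 was the single one above either threshold in all 4 samples. Of the others 12 (80.0% of the 15) were above the 75th percentile in 0 samples, with signals from 5.7 to 89.7. That share was 64.7% in the background list and 31.8% over all probe sets. Ccr2, the monocyte receptor for Ccl2, had 8.2, 21.2, 10.6 and 18.4. Cxcr4, the receptor of Cxcl12, had 9.0, 10.9, 66.6 and 73.2, low in the earlier and higher in the later samples but all under the 75th percentile. Ccrl2, an atypical receptor that binds chemerin without signalling, had 297.5, 42.0, 201.9 and 178.3. It was above the 75th percentile in 3 samples and low in the 2-hour sample. Cxcr3, the receptor of Cxcl9 and Cxcl10, had 155.2, 38.3, 141.5 and 46.0.

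Csf1, a ligand of the receptor on which microglia depend, had 535.5, 383.8, 511.6 and 428.8 (log2 SD 0.26) and was above the 90th percentile in every sample. Its receptor Csf1r, which is outside the naming rule, had 1701, 1487, 1820 and 1386. Csf3, the granulocyte colony-stimulating factor, had 547.1, 418.6, 368.1 and 281.5. It stood above the 90th percentile in the 1-, 2- and 4-hour samples and at 0.918 times it in the 6-hour sample. Csf3r, its receptor, had 673.0, 882.1, 682.7 and 915.7, above the 90th percentile throughout. Csf2, the granulocyte-macrophage factor, had 13.6, 19.7, 25.0 and 8.9, under the floor of 35.1 that was set for the log2 values.

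Of 25 interleukin probe sets 0 were above the 90th percentile in all 4 samples, and 1, for Il18, was above the 75th. Il18, a cytokine of the interleukin-1 family that is stored as an inactive precursor, had 310.1, 346.7, 360.6 and 248.7 (log2 SD 0.25). Its receptor chain Il18r1 had 42.8, 34.4, 42.5 and 23.2, and its soluble inhibitor Il18bp had 137.8, 30.3, 52.3 and 28.1. The fever-inducing cytokine Il1b had 12.1, 17.6, 18.7 and 21.2, and Il1a, its close relative, had 68.9, 69.5, 93.1 and 14.4. Il6, an acute-phase cytokine, had 3.1, 28.1, 9.7 and 5.9. The T cell growth factor Il2 had 7.5, 6.1, 6.5 and 4.0. In all, 18 interleukin probe sets (72.0%) for 16 genes were above the 75th percentile in 0 samples, with signals from 2.6 to 93.1. Of those 18, 10 were at the floor in all 4 samples. In the background list 64.7% were above the 75th percentile in 0 samples, and over all probe sets 31.8%.

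Some interleukins gave signals in part of the samples. Il16, released from a larger precursor that neurons also make, had 97.7, 241.8, 172.9 and 181.6 and exceeded the 75th percentile in all but the 1-hour sample. Il9, a cytokine of T helper cells and mast cells, had 61.8, 254.3, 123.3 and 216.4. Il5, which acts on eosinophils, had 158.2, 139.3, 68.0 and 112.6. For Il4, the cytokine of T helper 2 cells, 4 probe sets had signals from 2.6 to 151.5, and the highest of them came from a set with 151.5, 109.6, 14.8 and 12.7. The separate control probe sets for mouse Il2, Il4 and Il10 had signals of 16.2 to 62.9. Il10, an anti-inflammatory cytokine, had 36.0, 18.9, 13.8 and 81.0, and Il15 had 5.2, 35.1, 7.1 and 4.5.

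Among 28 interleukin receptor probe sets, 5 for 4 genes were above the 75th percentile in all 4 samples, and 1 of those above the 90th. Il27ra, a receptor chain for interleukin 27, had 459.4, 615.2, 504.9 and 622.7 (log2 SD 0.19). Il6st, gp130, the signalling chain shared by the receptors for interleukin 6, Lif and related cytokines, had 282.6, 279.6, 256.9 and 257.1 on one probe set. Its other probe set had 197.6, 217.8, 157.8 and 224.1. Both were above the 75th percentile in all 4 samples, and the log2 SD of the brighter was 0.08, among the smallest spreads of the members described. Il10rb, the shared second chain of the interleukin 10 family, had 236.6, 261.8, 275.7 and 246.9 (log2 SD 0.09). Il17ra had 252.8, 429.2, 316.4 and 381.9 on one probe set and 27.0, 145.6, 176.9 and 118.0 on the other, with the 1-hour sample lowest on both.

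Il6ra, the chain that binds interleukin 6, had 184.0, 217.1, 183.2 and 52.9, above the 75th percentile in the first 3 samples and low in the 6-hour sample. Il10ra, the ligand-binding partner of Il10rb, had 17.0, 25.5, 43.8 and 15.4. The interleukin-1 receptor Il1r1 had 34.5, 91.0, 70.0 and 56.4, and its accessory chain Il1rap 19.1, 53.9, 19.3 and 49.6. In all, 18 interleukin receptor probe sets (64.3%) were above the 75th percentile in 0 samples, with signals from 2.2 to 109.6. That share was 64.7% in the background list and 31.8% over all probe sets.

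The TNF receptor superfamily had 1 of 14 probe sets above the 90th percentile in all 4 samples and 5 of 14 above the 75th. Tnfrsf21, death receptor 6, which neurons express, had 940.8, 763.9, 667.3 and 675.7 (log2 SD 0.24), at its lowest 1.93 times the 90th percentile. TNF itself has a pair of receptors. Tnfrsf1a, the receptor that carries a death domain, had 224.0, 252.2, 142.8 and 131.8 on one probe set and 217.0, 130.2, 288.5 and 78.6 on the other. The first is marked in its identifier as resting on probes chosen under relaxed rules and was above the 75th percentile in all 4 samples. The unmarked second was above it in 3. Tnfrsf1b, the second TNF receptor, found on glia and leukocytes, had 178.2, 266.2, 152.9 and 153.2, above the 75th percentile in all 4 samples. Tnfrsf17, a receptor of plasma cells, had 133.1, 126.9, 140.8 and 130.8, close to the 75th percentile at its lowest (1.10 times). Tnfrsf11b, the decoy receptor osteoprotegerin, had 67.8, 74.4, 77.5 and 64.2.

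Tnfrsf19, an orphan receptor of progenitor cells, had 157.6, 151.0, 152.6 and 346.1. The first 3 samples were nearly equal and the 6-hour sample was high, 1.15 log2 units above the mean of the others (SD of those 3, 0.06). Of 6 probe sets for TNF superfamily ligands 0 were above either threshold in all 4 samples. Of the 6, 5 (83.3%) were above the 75th percentile in 0, against 64.7% of the background list and 31.8% of all probe sets. Tnf itself had 21.4, 35.1, 124.9 and 40.8, with the 4-hour sample high but under the 75th percentile there. Tnfsf10, the death ligand TRAIL, had 67.9, 35.5, 58.9 and 53.7.

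**Figure D3:**
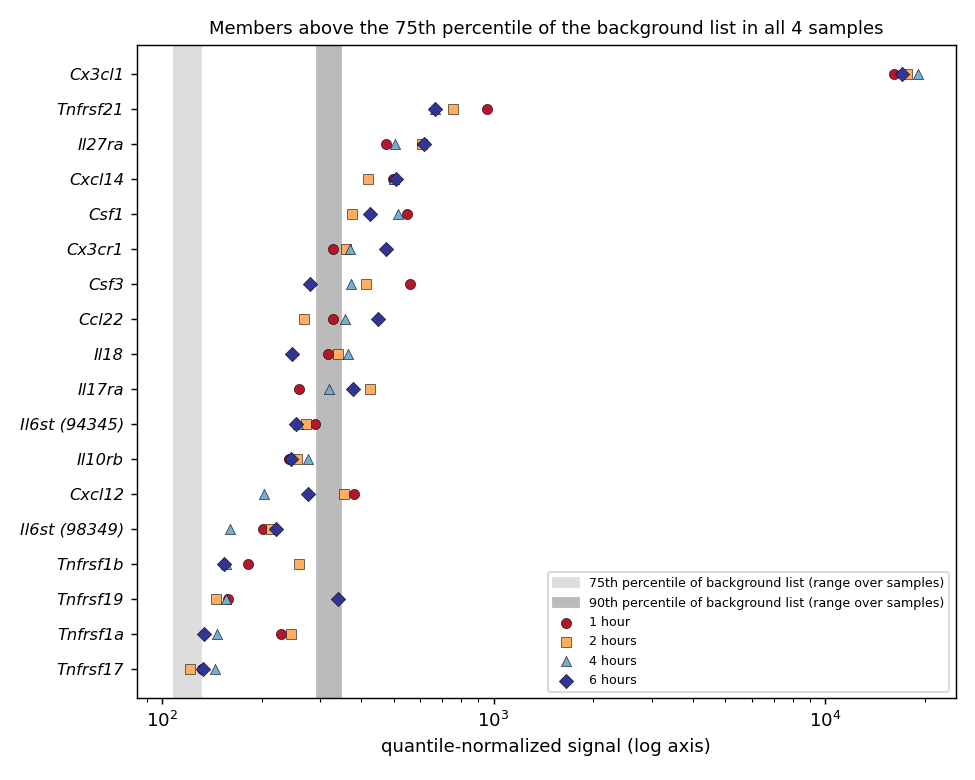
Normalized signal (log axis) in each of the 4 samples for the 18 probe sets above the 75th percentile of the background list in all of them, with the ranges of the 75th and 90th percentiles as grey bands. Cx3cl1 lies far to the right of the bands, and Tnfrsf21, Il27ra, Cxcl14, Csf1 and Cx3cr1 are the others to the right of the 90th percentile in every sample.

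Near the 90th percentile, the members just inside were Cx3cr1 (lowest ratio to it 1.005), Csf1 (1.27), Cxcl14 (1.42), Il27ra (1.45) and Tnfrsf21 (1.93). Just outside were Csf3 (0.918), Ccl22 (0.913), Il18 (0.809), the brighter Il17ra probe set (0.793) and the brighter Il6st probe set (0.745). Without the 1-hour sample, the number above the 90th percentile in all remaining samples was again 6, and above the 75th it was 20, with thresholds taken from those samples as normalized with all 4. The 7 probe sets of the background list that passed the 90th percentile in all 4 samples had signals of 314.5 to 994.3, and the signals of Cxcl14, Csf1, Cx3cr1, Il27ra and Tnfrsf21 lay in that range. Of the 6, Cx3cl1 alone stood outside that range. The top of the range came from Tnp1 (up to 994.3) and Ctrb1 (up to 852.6). Their probe sets, and that of Lor, are marked in their identifiers as resting on probes chosen under relaxed rules. Among the unmarked sets, for Lhb, Casq1, Gh and Atp4a, the highest signal was 580.7. Tnfrsf21 was above that in every sample (lowest 667.3) and Il27ra in some.

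Ligands and receptors were then set side by side, and a gene with several probe sets was represented by the one of highest mean. Of 44 pairs with both partners measured, 2 had both above the 90th percentile in all 4 samples, Cx3cl1 with Cx3cr1 and Csf1 with Csf1r. At the 75th percentile Csf3 with Csf3r joined them. At that threshold both partners were above in 3 pairs, the ligand alone in 3, the receptor alone in 5 and neither in 33. The ligands above without their receptor were Cxcl12 (Cxcr4), Ccl22 (Ccr4) and Il18 (Il18r1). The receptors above without their ligand were Il6st (Il6), Il17ra (Il17a), Csf2ra (Csf2), and Tnfrsf1a and Tnfrsf1b (Tnf for both). Tnfrsf1a counts here by its marked probe set, and its unmarked set was under the 75th percentile in the 6-hour sample. These counts use 1 tissue, and a partner may be made elsewhere.

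The intracellular steps after these receptors were described by a second list. Of 36 measured genes on a list of Janus kinases, STAT factors, TRAF adaptors, G proteins and their regulators, 13 were above the 90th percentile in all 4 samples and 18 in none. Over all non-control probe sets, counted singly, these shares were 32.4% and 56.7%. Each listed gene was represented by its probe set of highest mean, which can raise the count. Jak1, the kinase bound to gp130, had 1683, 1771, 1928 and 1764, and Stat3, the factor it activates, had 844.4, 696.9, 865.3 and 1109. Arrb1, an arrestin that uncouples receptors from G proteins, had 336.0, 679.6, 743.2 and 767.5, low at 1 hour. In that sample the Gapdh ratio was 4.52 and the beta-actin ratio 2.34. The part of RNA integrity in the low Arrb1 signal was not tested. Traf2, an adaptor of TNF receptors, had 331.0, 683.8, 546.8 and 392.8. Of 44 measured cytokine-system genes whose names lie outside the naming rule, 4 were above in all 4 samples, namely Csf1r, Csf3r, Kit and Flt3. Kit, the receptor of stem cell factor, had 966.0, 933.3, 681.9 and 823.2, and Flt3 had 552.2, 407.6, 560.6 and 550.9. The Flt3 probe set is marked in its identifier as resting on probes chosen under relaxed rules.

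Promoter sequence was examined as a property that the naming rule did not use. Inflammatory cytokine genes are known targets of NF-kappaB, which binds the kappaB consensus, and a TATAAA box is common in promoters of inducible genes. RefSeq promoter sequences (build GRCm38.p6) were found for 82 of the 103 genes, 100 promoters in all, and the 250 bases before each gene start were searched. The kappaB consensus, on both strands, was in 14 of 100 member promoters (14.0%) and in 3.90% of 32851 promoters of all genes. TATAAA, on the gene's strand, was in 16.0% of member promoters and in 7.59% of all. Among members above the 75th percentile in all 4 samples the kappaB consensus was in 1 of 14 promoters (7.14%), against 13 of 86 (15.1%) for the other members. The GC box GGGCGG, on both strands, was in 8 of those 14 promoters (57.1%), in 20.9% of the 86 and in 32.7% of all. These are counts of letters in a window, with no test, and a match is not a bound site.

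Shown are the promoters of Cx3cl1, the member furthest above the thresholds, and of Csf1, the single promoter with a kappaB match among members above the 75th percentile in all 4 samples. Il6, Cxcl1 and Cxcl10 follow as members above it in 0 samples whose promoters hold such a match. Capitals mark TATAAA, the kappaB consensus (2 overlapping matches form 1 run in Cxcl1) and GGGCGG. Each runs 5′ to 3′ on the gene's strand and ends at the last base before the gene start.
Cx3cl1 (chr8:94771930-94772179, plus strand): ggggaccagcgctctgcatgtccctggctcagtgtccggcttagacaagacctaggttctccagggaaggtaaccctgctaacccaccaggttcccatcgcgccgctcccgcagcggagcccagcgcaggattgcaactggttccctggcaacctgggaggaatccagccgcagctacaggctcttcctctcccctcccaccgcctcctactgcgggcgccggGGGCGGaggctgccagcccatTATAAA
Csf1 (chr3:107760470-107760719, minus strand): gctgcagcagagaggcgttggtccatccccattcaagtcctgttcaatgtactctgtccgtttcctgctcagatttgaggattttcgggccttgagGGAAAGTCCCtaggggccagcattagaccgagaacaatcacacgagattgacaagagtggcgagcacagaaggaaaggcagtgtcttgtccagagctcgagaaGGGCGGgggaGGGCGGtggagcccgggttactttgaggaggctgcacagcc
Il6 (chr5:30012864-30013113, plus strand): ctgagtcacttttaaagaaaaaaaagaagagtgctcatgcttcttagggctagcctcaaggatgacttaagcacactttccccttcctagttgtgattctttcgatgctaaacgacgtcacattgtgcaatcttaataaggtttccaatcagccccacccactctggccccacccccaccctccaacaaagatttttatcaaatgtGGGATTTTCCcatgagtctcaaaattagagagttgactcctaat
Cxcl1 (chr5:90890995-90891244, plus strand): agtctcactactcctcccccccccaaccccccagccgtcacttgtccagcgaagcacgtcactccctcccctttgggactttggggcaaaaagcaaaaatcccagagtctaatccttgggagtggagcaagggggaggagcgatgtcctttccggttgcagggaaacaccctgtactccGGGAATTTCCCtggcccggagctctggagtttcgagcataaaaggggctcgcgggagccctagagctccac
Cxcl10 (chr5:92348890-92349139, minus strand): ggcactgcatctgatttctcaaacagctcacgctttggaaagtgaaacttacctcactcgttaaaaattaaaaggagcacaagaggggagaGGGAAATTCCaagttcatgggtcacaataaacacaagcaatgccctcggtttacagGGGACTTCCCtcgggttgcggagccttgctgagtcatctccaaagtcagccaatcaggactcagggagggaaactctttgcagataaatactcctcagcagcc
In Cx3cl1 a TATAAA lies directly before the gene start and no kappaB consensus was found. Counted from the gene start, the kappaB match begins at position -154 in Csf1 and at -44 in Il6. Signals of Il6 and Cxcl10 are given above. Cxcl1, which attracts neutrophils, had 7.8, 25.3, 5.4 and 42.9 on one probe set and 18.5, 10.6, 95.6 and 48.7 on the other.

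The last comparison asked whether members changed over the sampling times. Of the 119, 33 probe sets for 29 genes were bright enough for the test, and 86 were not. In a limma trend fit over all 7453 tested probe sets, 0 of 33 members had an adjusted p under 0.05, as was true of all tested probe sets (0.0%). The smallest adjusted p of a member was 0.74 (limma, Benjamini-Hochberg). At an unadjusted p under 0.05 there were 5 of 33 members and 6.24% of all tested probe sets, and all 5 had negative coefficients. They were the dimmer Cx3cl1 probe set, Il15ra, a Cxcl12 probe set marked for cross-hybridization, Csf3 and Il6ra. Il15ra, the chain that presents interleukin 15, had 317.0, 176.8, 212.5 and 44.6, a fitted log2 change of -2.38 from 1 to 6 hours (SE 0.68, adjusted p = 0.74 by limma). Raising the floor to the 40th percentile gave -1.18, and leaving out the 6-hour sample gave -0.74. Without that sample the dimmer Cx3cl1 set had -0.51, against -1.98 with it, and the marked Cxcl12 set had -0.95, against -2.10 with it. The higher floor gave -0.80 for that Cxcl12 set. As deposited, Csf3 and the marked Cxcl12 set were the ones of the 5 with a lower signal at each later time. After normalization, as used in the fit, that Cxcl12 set had 135.3 at 2 hours and 141.8 at 4 hours. Csf3 alone then fell at each step, with a fitted log2 change of -0.89 (SE 0.30, adjusted p = 0.74 by limma). Over all 33 the median fitted change was -0.14, with 16 positive and 17 negative, and over all tested probe sets it was -0.02. Of the signalling list 24 probe sets were tested and of the other cytokine-system genes 26, and 0 of either had an adjusted p under 0.05 (limma), with 2 and 1 under 0.05 before adjustment.

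The spread between samples was wide for many members. From lowest to highest sample, 14 of 33 tested members (42.4%) spanned at least 1 log2 unit, and so did 17.9% of all tested probe sets. Without the 1-hour sample these shares were 30.3% (10 members) and 9.06%. The median log2 SD was 0.41 for the 33 members and 0.25 for all tested probe sets, while for the 6 members above the 90th percentile in all 4 samples it was 0.21. Those 6 were chosen as high in every sample, which leaves out sets with a low sample and can itself lower the SD. The 33 members were not matched to all tested probe sets for signal level. The part of level in these differences was not tested.

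Single samples stood apart for a handful of members. In the 1-hour sample 5 of 33 members (15.2%) exceeded the mean of the other samples at least 2-fold and 1 (3.03%) lay as far below it, against 1.78% and 4.56% of all tested probe sets. The 5 were Il15ra, Ccrl2, Ccl9, the marked Cxcl12 probe set and the dimmer Cx3cl1 probe set, and the 1 below was Il9. In the 6-hour sample 1 member, Tnfrsf19, lay as far above and 5 (15.2%) as far below, against 1.49% and 1.61% of all. Those 5 were Il15ra (-2.30, SD of the other 3 0.46), the dimmer Cx3cl1 set (-1.95, SD 0.41), the marked Cxcl12 set, Il6ra and a Tnfrsf1a probe set. With no sample repeated at a time, these counts have no test. The members and all tested probe sets were not matched for signal level here either.

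In the 2-hour sample Il9 lay 2-fold or more above and Ccrl2 as far below (-2.45, SD 0.40), 1 member each, against 1.27% and 1.72% of all tested probe sets. In the 4-hour sample a Tnfrsf1a probe set lay above (1.16, SD 0.74) and Ccl9 below, against 1.07% and 1.93% of all. Ccl9, a chemokine of myeloid cells, had 234.4, 154.3, 26.9 and 175.2, with the 4-hour sample under the floor. Tnfrsf18, a receptor of regulatory T cells, had 111.6, 68.0, 121.1 and 151.6, lowest in the 2-hour sample. The 9 probe sets that passed the 2-fold mark in any sample were all outside the 6 above the 90th percentile in all 4 samples. The highest signal among the 9 was 475.8. The 6 were chosen as high in every sample, which leaves out sets with a low sample. The lack of overlap is therefore no separate result.

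**Figure D4:**
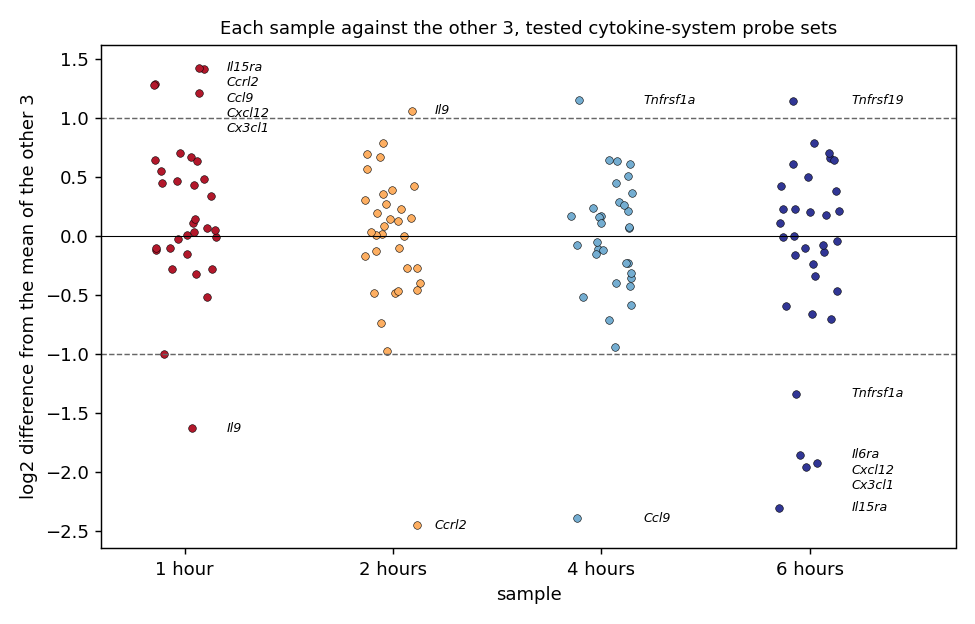
Log2 difference of each sample from the mean of the other 3 for the 33 tested members, 1 point per probe set, with dashed lines at a 2-fold difference and the genes beyond them named in order of their values. In the 1-hour sample 5 of the 6 points beyond the lines are above, and in the 6-hour sample 5 of the 6 are below.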

How the data were processed

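Per the labels, 4 arrays of 1 colour measured total RNA of area CA1 from handled control mice. The deposited table gives 1 intensity for each probe set, not log-transformed. The authors had scaled the arrays to one level, as the deposited columns show: leaving out 2% of values at either end, all 4 have a mean of 500.3. Software and scan settings: not given in the sources used here.

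The members and gene lists were chosen with earlier results of these data known. Genes were named from the platform annotation, and all 119 members matched the gene table of GRCm38.p6 under the same symbol. Of the 119, 11 had identifiers that mark possible cross-hybridization or probes chosen under relaxed rules, and 13 genes had several probe sets.

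The 12422 non-control probe sets were quantile normalized in limma 3.58.1 (R 4.3.3). Background thresholds were the 90th and 75th percentile of the background list in each sample, for which 98 of 115 listed genes had a probe set. For log2 values a floor was set at the 20th percentile (35.1), and probe sets with a mean log2 at or above the 40th percentile were tested. The trend was fitted with limma (lmFit, eBayes with an intensity trend), time linear, 2 residual degrees of freedom, p-values two-sided with Benjamini-Hochberg adjustment over 7453 probe sets. The fit was run on simulated data, and 100% of changes of 2 log2 units were found. Every simulated probe set had the same residual spread, whereas real spreads differ. That run therefore does not show how often real changes would be found. Each trend p-value sets the fitted slope against the scatter of the samples around the fitted line. No time had a repeated array, so the spread between replicates was not measured, and the scatter may be technical. Alternatives changed the threshold, normalization, floor, filter, time scale and samples.

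Named were members above background in all 4 samples, preset genes, those nearest the 90th percentile, those furthest from the other samples and those of smallest trend p. Other members were named after their values were seen. The small number of arrays limits the precision. Python 3.11.15 with matplotlib 3.10.9 drew the figures.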

Additional observations from a re-analysis of the deposited data

Results flagged for a closer look

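In 54 probe sets of members whose values are given or that were above the 75th percentile in all 4 samples, the sample farthest from the rest was set against the whole range of log2 values. In 11 of them its gap to the next sample took more than Dixon's 95% critical share of that range. Of 33 with no sample at the floor this held for 3, where chance alone gives about 1 in 20 for members chosen without regard to their values, which these were not. For Tnfrsf19 the gap of the high 6-hour sample was 0.901 of the range. For Il6ra the low 6-hour sample gave 0.895, and for Cxcl14 the low 2-hour sample gave 0.883, in a range of only 0.28 log2 units. In the other 8 the floor made samples equal, so the chance rate does not apply. The high 4-hour sample of Tnf gave 0.853 and the high 6-hour sample of Il10 gave 0.984. For Cxcl9 (1-hour sample high), Cxcl1 (6-hour sample high), Il10ra, Ccl17 and 2 Il4 probe sets (4-hour sample high) the value was 1.0, since the other 3 samples were at the floor. The log2 range behind it was only 0.015 for Cxcl9, 0.332 for Il10ra and 0.352 for Cxcl1. It was 0.895 and 0.958 for the Il4 sets and 2.124 for Ccl17. No cause was tested.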

How the results depend on the processing

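The number of members above background in all 4 samples depended most on the threshold. It was 6 at the 90th percentile of the background list, 3 at the 95th (Csf1 at 0.99, Il27ra at 0.973 and Cx3cr1 at 0.674 times it were no longer above) and 18 at the 75th. It was 13, 19 and 38 with the median, 40th and 20th percentile of all probe sets, and 21 with the bacterial and yeast controls, a threshold added after seeing the data. Leaving out 1 sample gave 6 to 7. Cx3cl1, Tnfrsf21 and Cxcl14 stayed above in all 14 alternatives, but many of these could not have removed them. The 75th percentile, the quantiles of all probe sets and the bacterial and yeast controls were lower thresholds. Asking for at least 3 of 4 samples, or leaving out marked probe sets, left their values unchanged. The 95th percentile was the single stricter threshold, and there their lowest ratios were 33.0, 1.56 and 1.02. For the trend over time, 0 members had an adjusted p under 0.05 (limma) under every alternative run, with smallest values of 0.205 without the 2-hour sample and 1.0 without the 1-hour sample. The main count of members 2-fold from the others was 6, 2, 2 and 6 in the 1-, 2-, 4- and 6-hour samples. With the floor at the 40th percentile it was 3, 0, 0 and 3, and with no filter on low values 19, 11, 17 and 12. When 1 other sample was left out it was 5 to 7 in the 1-hour, 3 to 4 in the 2-hour, 2 to 4 in the 4-hour and 5 to 7 in the 6-hour sample. The 4 in the 2-hour sample came without the 6-hour sample, and the 4 in the 4-hour sample without the 1-hour sample. No paired analysis was possible because each time had 1 sample. Signals near background limit what can be said of 106 members, and time cannot be told apart from animal, dissection or array.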
